A study of Danio rerio with 18 samples.

Results

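The nuclear oxidative phosphorylation genes of the zebrafish are those whose protein products, made in the cytosol and imported, build the respiratory chain and the ATP synthase of mitochondria together with proteins encoded by mitochondrial DNA. Members were taken by gene symbol: names beginning with ndufa, ndufb, ndufc, ndufs, ndufv, sdh, uqcr, cox4 to cox8 or atp5 on nuclear chromosomes, without the ndufaf assembly factors, and with at least 10 counts in 3 libraries. Of 108 genes with such symbols, 8 were ndufaf genes and 1, with too few counts, was ndufa4l2b, which left 99 of the 25107 genes in the table. The 13 protein genes of mitochondrial DNA were set beside them.

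RNA came from adult heart ventricles, with 2 to 3 ventricles pooled in a library and 3 libraries in each of 6 groups. Fish of all groups, controls included, were homozygous for the floxed tcf21vln18 allele, which Cre can delete. All also carried the Tg(ubbR:CreERT2*)vln2 transgene, an inducible Cre driven by ubb and so not limited to one cell type, and the reporter TgBAC(tcf21:DsRed2)pd37. The cKO arm had received 4-hydroxytamoxifen, in 3 baths of 24 h at 5 µM; the labels list no treatment for the control arm, so the drug and the loss of tcf21 cannot be told apart. Each arm had ventricles taken without any procedure (day 0), ventricles 3 days after sham, in which the heart was only laid open, and ventricles 3 days after freezing by a probe cooled in liquid nitrogen (cryoinjury). Procedures came 12 days after the first bath. The labels do not say whether the libraries of a group came from separate clutches or procedures, so p-values measure the spread between these libraries.

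Complex I (NADH dehydrogenase) and complex II (succinate dehydrogenase) pass electrons from metabolism into the chain, complex III (cytochrome bc1) passes them to cytochrome c, and complex IV (cytochrome c oxidase) hands them to oxygen. Complexes I, III and IV pump protons, and complex V, the ATP synthase, uses the proton gradient to make ATP. Heart muscle depends on this route for most of its ATP, and complex II alone has no subunit encoded by mitochondrial DNA. Several complex IV subunits have paralogues, and in mammals COX6A2 and COX7A1 are the forms of heart and skeletal muscle while COX6A1 and COX7A2 are found in most tissues.

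The deposited estimated counts summed to between 107256750 and 191085931 per library, of which 11.7% to 21.6% lay on mitochondrial DNA. The check of the arms was clear: tcf21 stood at 8.10 ± 2.28 (uninjured), 16.6 ± 1.97 (sham) and 14.9 ± 0.248 (cryoinjury) scaled CPM, the count of a gene relative to the whole scaled library, in the control arm, against 0.707 ± 0.259, 0.795 ± 0.119 and 0.824 ± 0.123 in the cKO arm (mean ± SD, n = 3). The sequencing lane in the library files separated groups: the 3 control uninjured and 2 of the 3 control sham libraries came from lane 2 and the other 13 from lane 4. Comparisons within the cKO arm, and cKO against control after cryoinjury, therefore lie within 1 lane, while control cryoinjury against control uninjured lies between lanes. So does cKO against control in uninjured ventricles. Comparisons with control sham lie partly between lanes. CPM values were scaled by TMM, which assumes that most genes do not change, with factors from 0.769 (control uninjured replicate 1) to 1.33 (control cryoinjury replicate 1). Without these factors the median log2 fold change of all genes tested would move to 0.51 in control and 0.28 in cKO for cryoinjury against uninjured. All changes below are relative to the median gene, except those in TPM, as shares or with library totals alone.

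The 99 members fell into complex I (38), complex II (9, of which 4 are sdhaf assembly factors), complex III (8), complex IV (24, with ndufa4a, ndufa4b and ndufa4l2a) and complex V (20, of which 2 are the atp5if1 inhibitors). They lay on 25 chromosomes, at most 9 on one of them (chromosome 3), and all 99 passed the filter on low counts. Per length, the members differed widely in level. Mean TPM, a length-corrected share of the transcripts of a library, over the 18 libraries had a median of 207 in complex I, 35.7 in complex II, 317 in complex III, 535 in complex IV and 562 in complex V. The highest were ndufb7 (514 TPM), the flavoprotein sdha (398 TPM), uqcrb (481 TPM), cox6a2 (1824 TPM) and the catalytic beta subunit atp5f1b (2941 TPM). The mitochondrial genes stood far above these, from 6230 TPM for mt-nd5 to 46800 TPM for mt-co1. The lowest member was ndufa4l2a at 1.21 TPM.

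The summed level of the 99 members was lower after cryoinjury in both arms. In the control arm the 3 libraries summed to 45750, 29670 and 28170 CPM uninjured, 30090, 30300 and 27730 CPM after sham, and 17660, 21480 and 22320 CPM after cryoinjury. In the cKO arm they summed to 45190, 41390 and 31620 CPM uninjured, 36760, 32580 and 33330 CPM after sham, and 28140, 23720 and 28200 CPM after cryoinjury. In each arm all 3 cryoinjured libraries lay below all uninjured and all sham libraries, and control uninjured replicate 1 and cKO uninjured replicate 3 stood apart from the other 2 of their groups, high and low. The size of the fall depended on the scale: the control cryoinjury mean was 59.3% of uninjured in CPM, 86.2% in TPM and 82.0% as a share of all nuclear-gene counts. In TPM the control cryoinjured libraries (36150 to 38430) overlapped the uninjured (38380 to 49590). So did those of cKO (38740 to 46300 after cryoinjury, 41540 to 55830 uninjured).

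**Figure D1:**
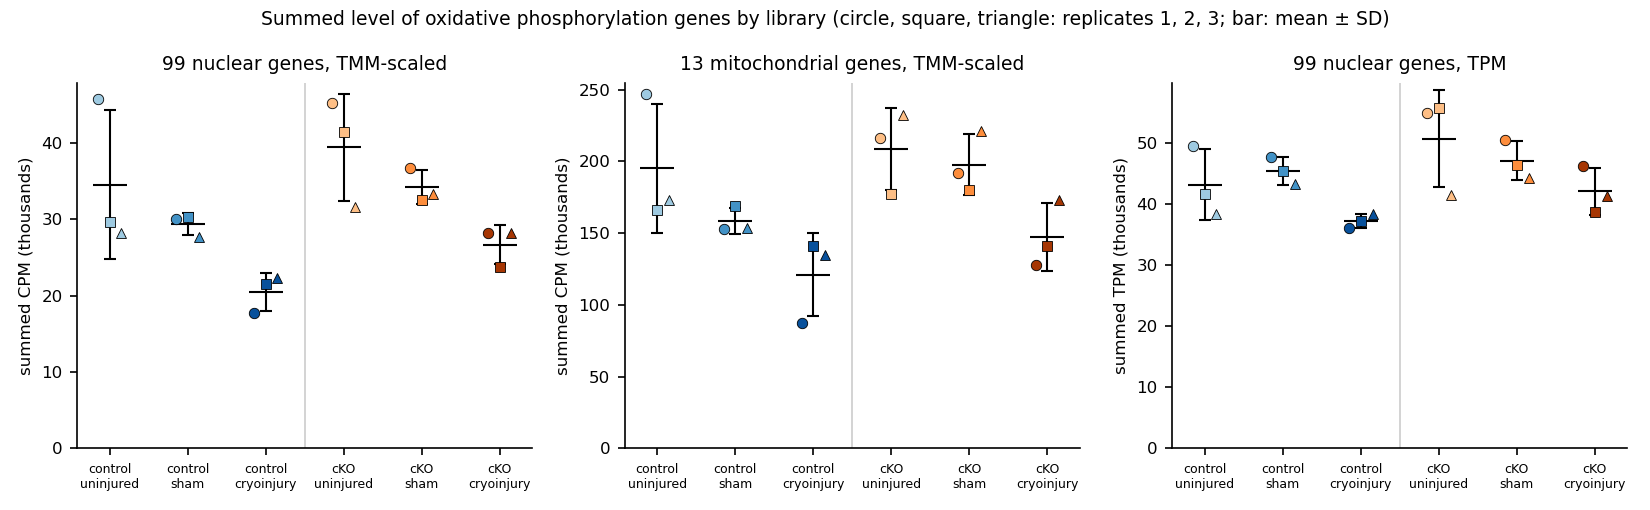
Summed level of the 99 nuclear members (left, CPM; right, TPM) and of the 13 mitochondrial protein genes (middle, CPM) in each library, with mean and SD of each group of 3. The control cryoinjured libraries sit at 17660 to 22320 CPM against 28170 to 45750 CPM uninjured, and the same groups touch in TPM.

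After cryoinjury in the control arm, most members fell relative to the median gene. At an adjusted p under 0.05 (edgeR's quasi-likelihood test, Benjamini-Hochberg over 20462 genes), 66 of 99 members were lower and 2 were higher, where 10.6% of all genes tested were lower and 13.1% higher. The median log2 fold change of the members was -0.68, against 0.02 over all genes. The 3 cryoinjured libraries lay below the 3 uninjured ones for 69 members, against 14.9% of all genes. The fall ran through all 5 complexes: 29 of 38 complex I members, 5 of 9 in complex II, 6 of 8 in complex III, 11 of 24 in complex IV and 15 of 20 in complex V were lower, with medians of -0.67, -0.77, -0.78, -0.45 and -0.71. Both members that rose, cox6a1 and cox7a2b, belong to complex IV. These calls rest on a comparison between lanes: with lane as a term, identified only through the control sham group, the median was -0.54 but 2 members were called, cox7a1 (-1.45, adjusted p = 0.0326) and atp5mc3b (-1.25, adjusted p = 0.0342). With library totals alone the median was -0.18, with 10 members lower and 6 higher, and the complex IV median changed sign to 0.06. These values are not relative to the median gene, whose fold change also moves up on that scale, as given above. The shares of all genes called in that fit are not given here.

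**Figure D2:**
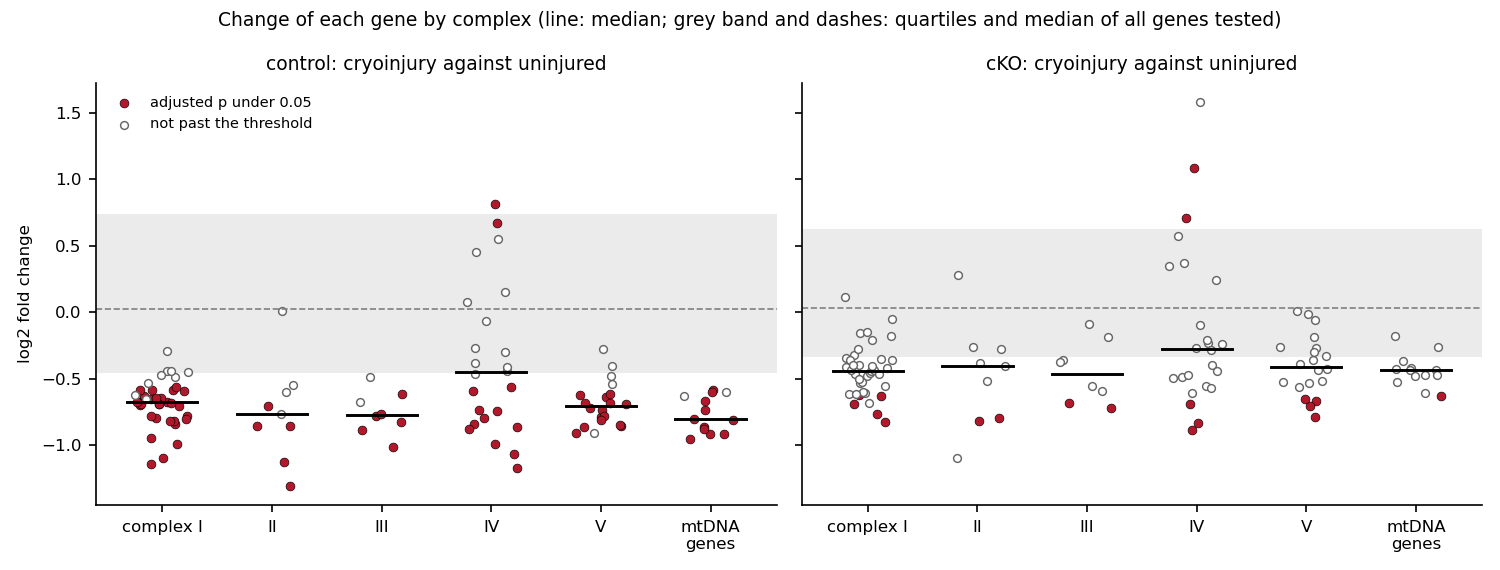
Log2 fold change of cryoinjury over uninjured for each member by complex and for the 13 mitochondrial DNA genes, in control (left) and cKO (right); filled points passed an adjusted p of 0.05. Medians run from -0.78 to -0.45 by complex in control and from -0.47 to -0.27 in cKO, and the points above 0 lie mostly in complex IV.

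In complex I, ndufb7, an accessory subunit of the membrane arm, stood at 346, 266 and 352 CPM in uninjured control ventricles and at 91.1, 167 and 178 CPM after cryoinjury. The groups did not overlap, and the sham libraries (196, 210 and 229 CPM) lay between them. Its log2 fold change from uninjured to cryoinjury was -1.14 ± 0.21 (SE, adjusted p = 0.000813). The core subunit ndufs1 fell by 0.99 (adjusted p = 0.00605) and ndufv1, which binds NADH, fell by 0.82 (adjusted p = 0.00929). Fold changes over complex I ran from -1.14 to -0.29, so that none of its 38 members lay above 0. The gene ndufa9b, listed as a pseudogene in RefSeq, also fell, by 1.1 (adjusted p = 0.0054), from a level of 18.2 TPM against 204 TPM for ndufa9a; reads of such near copies may be shared between them.

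In complex II, the flavoprotein sdha (ENSDARG00000016721, GRCz11 chr19:7276060-7291733) stood at 1161, 746 and 632 CPM in uninjured control ventricles, at 778, 779 and 628 CPM after sham and at 385, 380 and 399 CPM after cryoinjury. The cryoinjured libraries were close to each other and below every other control library. The log2 fold change was -1.13 ± 0.21 against uninjured (adjusted p = 0.00111) and -0.91 ± 0.21 against sham (adjusted p = 0.0451). The iron-sulfur subunit sdhb fell by 0.86 against uninjured (adjusted p = 0.00321) and the membrane anchor sdhc by 0.71 (adjusted p = 0.0195), while the other anchor, sdhdb, had -0.54 (adjusted p = 0.0746). The assembly factor sdhaf2, which in yeast and mammals helps attach the flavin to the flavoprotein, had the lowest fold change of all members, -1.31 ± 0.37 (adjusted p = 0.0162). Its libraries scattered, with 86.8, 53.2 and 44.4 CPM uninjured, 42, 28.8 and 14.7 CPM after sham and 20.9, 16.7 and 37.0 CPM after cryoinjury, and its call was lost without control uninjured replicate 1 (adjusted p = 0.0838), control cryoinjury replicate 1 (0.0708) or replicate 2 (0.0763), and with lane as a term its fold change was -0.04.

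In complex III, the Rieske iron-sulfur protein uqcrfs1 fell from 1208, 805 and 562 CPM to 374, 436 and 462 CPM in the control arm. All 3 cryoinjured libraries were below the lowest uninjured one, and the log2 fold change was -1.02 ± 0.22 (adjusted p = 0.0033). The core subunits uqcrc1 (-0.78, adjusted p = 0.0285) and uqcrc2a (-0.77, adjusted p = 0.00275) fell with it. In complex V, atp5f1b, the most abundant member, fell from 5679, 3406 and 3589 CPM to 2327, 2619 and 2740 CPM, a log2 fold change of -0.72 ± 0.20 (adjusted p = 0.0149), and the alpha subunit ATP5F1A fell by 0.86 (adjusted p = 0.00343). Of the genes for the proton-carrying c subunit, atp5mc3b fell by 0.91 (adjusted p = 0.00129), while atp5mc1 had -0.28 (adjusted p = 0.549). The inhibitor atp5if1b fell by 0.68 (adjusted p = 0.0185), and atp5if1a had -0.41 (adjusted p = 0.116).

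In complex IV, paralogues of 1 subunit moved apart in both arms. The muscle form cox7a1 (ENSDARG00000069464, GRCz11 chr15:20403084-20405796) stood at 331, 215 and 254 CPM in uninjured control ventricles, at 184, 212 and 241 CPM after sham and at 88.3, 120 and 147 CPM after cryoinjury. It fell by 1.17 ± 0.20 against uninjured (adjusted p = 0.000456), and this call held in all 14 alternatives run, with adjusted p up to 0.0326. The paralogue cox7a2b (ENSDARG00000110700, GRCz11 chr20:49697463-49704915) stood at 6.67, 3.72 and 5.17 CPM uninjured and at 8.30, 7.53 and 8.91 CPM after cryoinjury. It rose by 0.67 ± 0.22 (adjusted p = 0.0327), a call kept in 7 of 14 alternatives and lost with lane as a term (adjusted p = 0.401), in a fit of the 6 libraries alone (adjusted p = 0.123), without control uninjured replicate 2 (0.48, adjusted p = 0.135), control uninjured replicate 3 (adjusted p = 0.0624) or any 1 cryoinjured library (adjusted p = 0.0759, 0.0503 and 0.0964 without replicates 1, 2 and 3).

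The COX6A paralogues, an accessory subunit of complex IV, also moved apart. The gene cox6a2 (ENSDARG00000054588, GRCz11 chr3:31039923-31042102, listed under the symbol COX6A1 in the table) stood at 1078, 649 and 684 CPM in uninjured control ventricles and at 306, 403 and 443 CPM after cryoinjury. It fell by 1.06 ± 0.21 (adjusted p = 0.00136). The gene cox6a1 (ENSDARG00000022438, GRCz11 chr8:39760258-39765996) stood at 52.8, 57.5 and 41.2 CPM uninjured, at 58.4, 69.8 and 46.4 CPM after sham and at 95.5, 87.8 and 82.1 CPM after cryoinjury. Every cryoinjured library was above every other control library, and the gene rose by 0.81 ± 0.22 against uninjured (adjusted p = 0.0119); with lane as a term the fold change was 1.28 (adjusted p = 0.0831).

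**Figure D3:**
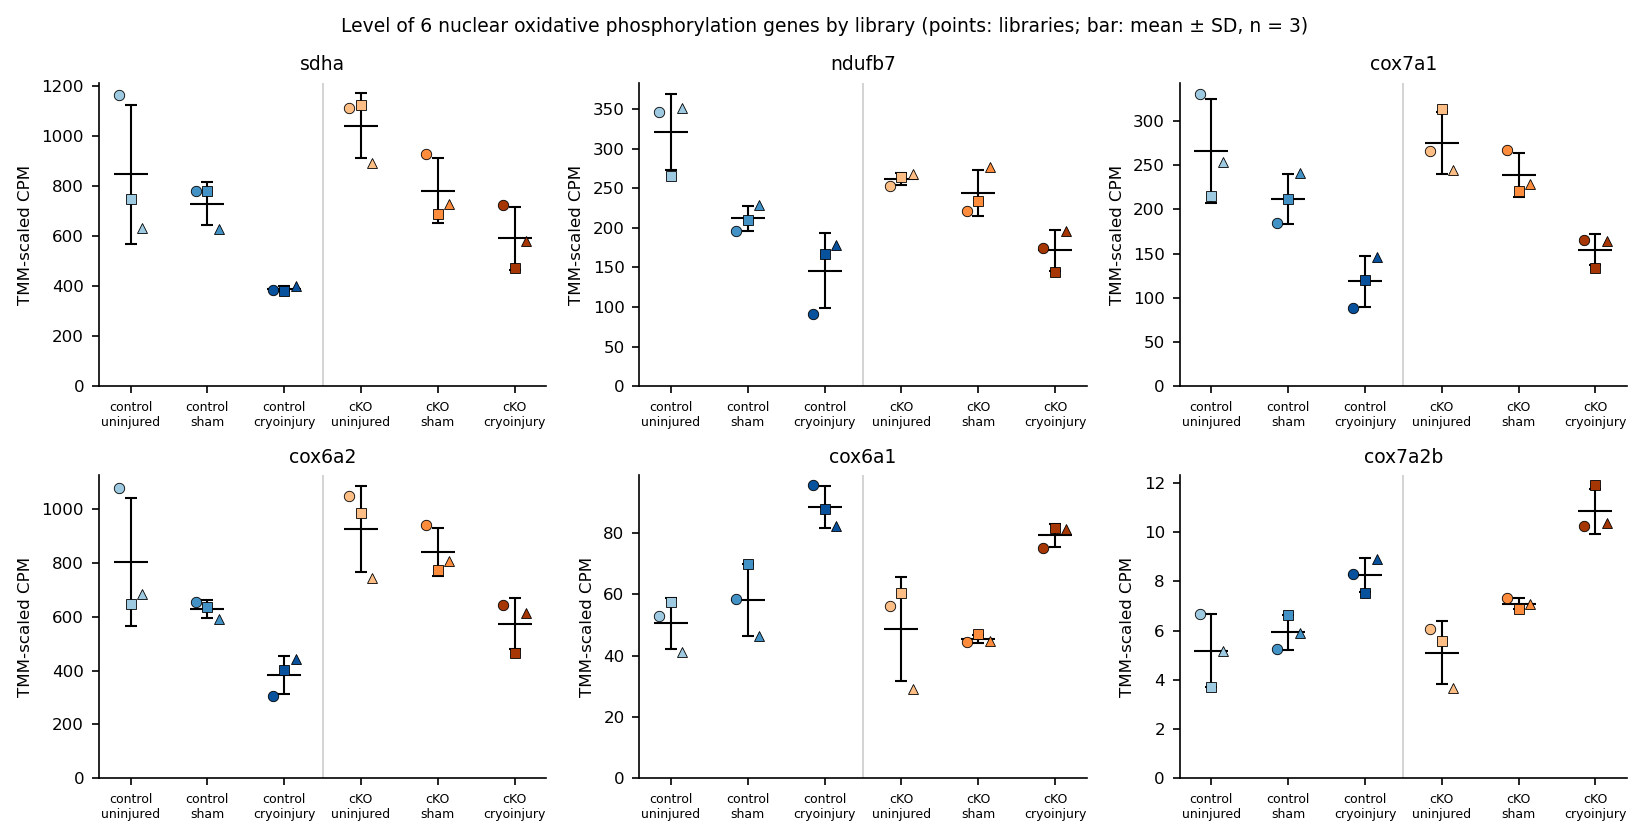
CPM of 6 members in every library, with mean and SD of each group of 3. In both arms the cryoinjured libraries of sdha, ndufb7, cox7a1 and cox6a2 lie below the uninjured ones, and those of cox6a1 and cox7a2b lie above them.

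A share of TPM within 1 subunit does not depend on how libraries are scaled. In the control arm cox6a1 made up 5.23% ± 1.53 of the TPM of the COX6A pair uninjured, 7.17% ± 1.15 after sham and 16.5% ± 3.73 after cryoinjury (mean ± SD, n = 3). In the cKO arm, all from 1 lane, the shares were 4.12% ± 0.870, 4.37% ± 0.543 and 10.6% ± 2.02. Among cox7a1, cox7a2a and cox7a2b, the share of cox7a1 was 83.1% ± 2.83 uninjured, 72.9% ± 3.35 after sham and 58.8% ± 6.0 after cryoinjury in control, and 83.1% ± 4.08, 79.2% ± 2.70 and 62.1% ± 5.17 in cKO. The gene cox7a2l was left out of this share. It fell in control from uninjured to cryoinjury (-0.86, adjusted p = 0.00881). In these 2 subunits each cryoinjured library lay outside the range of the uninjured and sham libraries of its arm.

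The COX8 and COX5B subunits showed the same direction. The share of cox8a in the COX8 pair was 22.2% ± 3.50 uninjured, 24.8% ± 1.36 after sham and 34.4% ± 3.26 after cryoinjury in control, and 18.2% ± 1.84, 19.3% ± 4.21 and 27.8% ± 2.39 in cKO. The share of cox5ba in the COX5B genes was 25.7% ± 3.86, 28.0% ± 3.34 and 40.0% ± 5.13 in control, and 22.5% ± 2.45, 25.2% ± 4.79 and 35.8% ± 2.18 in cKO. Again no cryoinjured library overlapped the uninjured or sham libraries of its arm. Behind these shares lay falls of cox8b (-0.80, adjusted p = 0.0222) and cox5b2 (-0.84, adjusted p = 0.0153) in control, while cox8a had 0.07 (adjusted p = 0.848) and cox5ba 0.15 (adjusted p = 0.549).

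**Figure D4:**
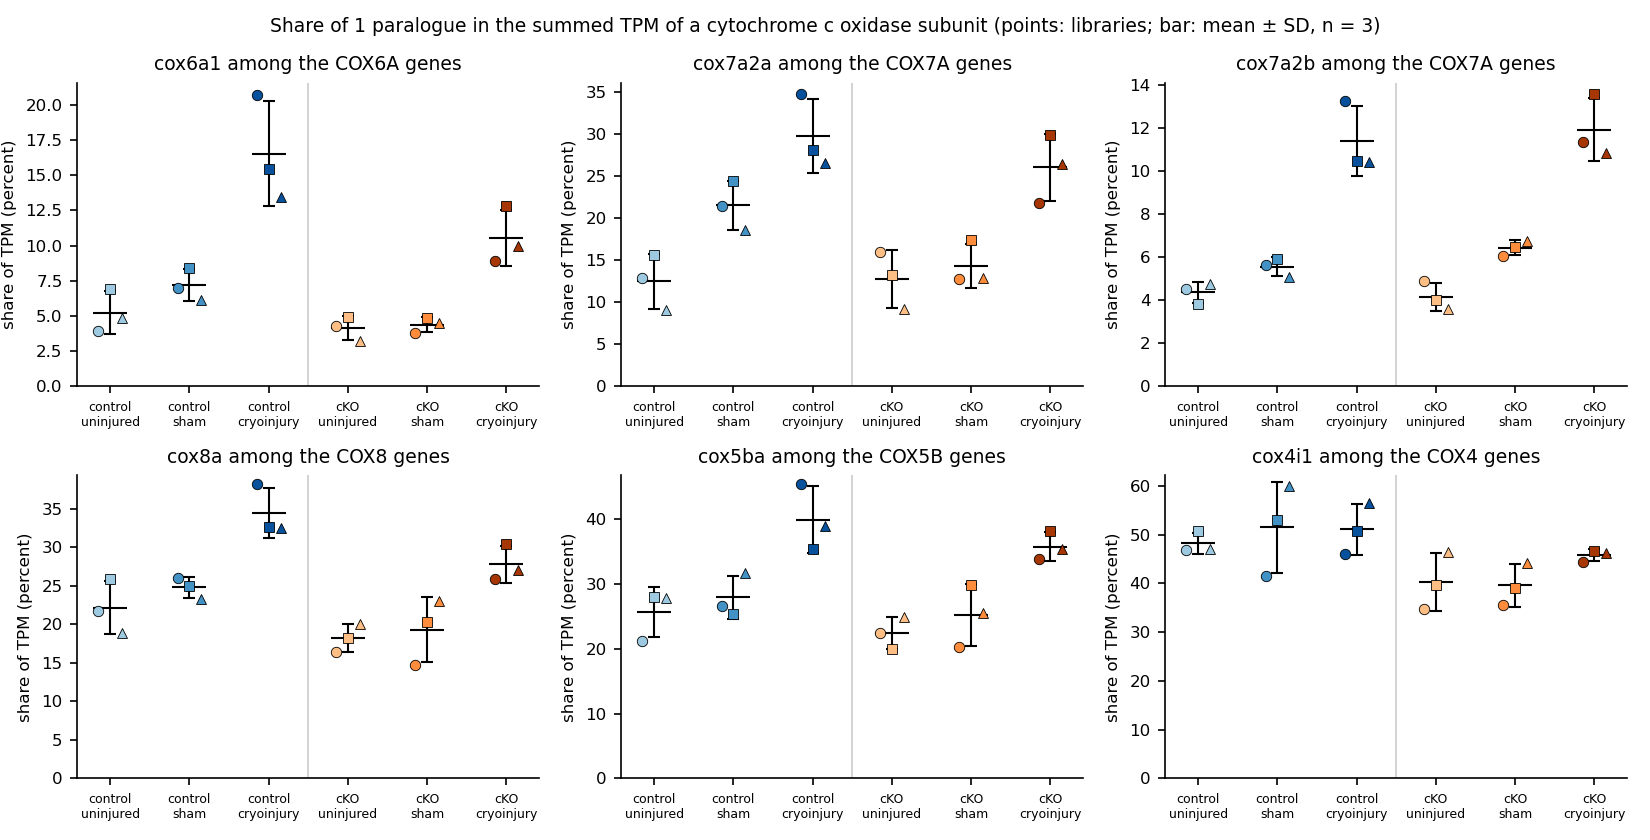
Share of 1 paralogue in the summed TPM of its subunit, in percent, for 5 paralogues of COX6A, COX7A, COX8 and COX5B and for cox4i1 of COX4, by library with mean and SD of each group. Cryoinjured libraries stand above the rest of their arm in the first 5 panels (cox6a1 at 13.5% to 20.7% in control), and the COX4 panel shows overlapping groups.

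The other paralogue sets showed no such split from both uninjured and sham libraries in both arms. The share of cox4i1 among the COX4 genes was 48.2% ± 2.14 uninjured and 51.1% ± 5.26 after cryoinjury in control, and both cox4i1 (-0.74, adjusted p = 0.00369) and cox4i1l (-0.99, adjusted p = 0.0112) fell. The form cox4i2, which in mammals is the lung form, stayed under 1% of the COX4 TPM in every library. Among COX5A genes, cox5aa held 76.3% ± 2.83 uninjured and 72.0% ± 1.58 after cryoinjury in control, without overlap. In cKO the share of cox5aa was 71.2% ± 3.10 and 71.7% ± 0.925, with overlap. The share of cox6b1 in its pair was 39.4% ± 2.55 and 44.4% ± 2.05 in control, uninjured and after cryoinjury, without overlap, but 44.9% ± 5.51 and 45.4% ± 0.125 in cKO, with overlap. In complex V some shares separated in control but overlapped in cKO. The share of atp5if1a in the inhibitor pair was 42.7% ± 3.76 uninjured, 41.6% ± 5.66 after sham and 47.0% ± 0.370 after cryoinjury in control, with all 3 cryoinjured libraries above the others. The share of atp5mea in the ATP5ME pair was 3.18% ± 0.189, 3.49% ± 0.362 and 2.66% ± 0.177, with all 3 cryoinjured libraries below the others. The share of atp5mc3b among the c-subunit genes was 73.1% ± 5.75 uninjured and 63.8% ± 2.24 after cryoinjury, without overlap, but overlapped the sham libraries (67.1% ± 7.24). The low-level ndufa4l2a, whose mammalian counterpart rises in hypoxia, stood at 0.837, 0.291 and 0.657 CPM in uninjured cKO ventricles. After cryoinjury it stood at 2.06, 2.14 and 1.14 CPM, without overlap. Its log2 fold change of 1.58 missed the threshold (adjusted p = 0.0679), and in control it was 0.45 (adjusted p = 0.593). Its share of the NDUFA4 TPM was 0.0267% ± 0.00526 uninjured and 0.0650% ± 0.0274 after cryoinjury in control. In cKO the share was 0.0236% ± 0.0118 and 0.0941% ± 0.0324. Cryoinjured libraries lay above the uninjured ones in both arms, but in cKO they overlapped the sham libraries (0.0465% ± 0.0274).

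The mitochondrial protein genes fell with the nuclear members in the control arm, relative to the median gene. Of 13, 11 were lower after cryoinjury than in uninjured controls, where 10.6% of all genes were. The median log2 fold change was -0.80, and mt-co2 and mt-atp6 missed the threshold. Their sum was 246700, 165800 and 172900 CPM uninjured, 153100, 168800 and 153300 CPM after sham and 87640, 140700 and 135100 CPM after cryoinjury. Control cryoinjury replicate 1 was the lowest library, and without it 5 of 13 were called. Without control uninjured replicate 1 the count was also 5, and with lane as a term 0. For these fits too, the shares of all genes called are not given here. In TPM the sums of the control cryoinjured libraries (183100 to 245700) overlapped the uninjured (236900 to 282500). As a share of all counts they also overlapped (11.65% to 16.45% after cryoinjury, 15.49% to 18.96% uninjured). The ratio of the mitochondrial to the nuclear sum was 5.71 ± 0.388 uninjured and 5.86 ± 0.812 after cryoinjury in control, and 5.48 ± 1.64 and 5.54 ± 0.875 in cKO, so that it moved by less than its SD in both arms. In the cKO arm only mt-co1 passed, at -0.63 (adjusted p = 0.0364), of the 13 genes in cryoinjury against uninjured. There 3.69% of all genes were lower. The median of the 13 genes was -0.44.

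In the cKO arm cryoinjury was followed by a smaller number of calls in the same direction. Against uninjured cKO ventricles 16 members were lower and 2 higher, where 3.69% of all genes were lower and 6.92% higher, with a member median of -0.42. The cryoinjured libraries lay below the uninjured ones for 48 members, against 14.2% of all genes. All 16 were among the 66 that fell in control (100.0% of the cKO list, 24.2% of the control list), and cox6a1 and cox7a2b rose in both arms. Among the called members the log2 fold change was lowest for cox4i1l (-0.89, adjusted p = 0.0397), cox7a1 (-0.84, adjusted p = 0.0117), ndufa9b (-0.82, adjusted p = 0.0497), sdha (-0.82, adjusted p = 0.0201), sdhb (-0.79, adjusted p = 0.0124) and ATP5F1A (-0.79, adjusted p = 0.0136). The count changed when single libraries were left out. It was 9, 6 and 23 without cKO uninjured replicates 1, 2 and 3. Without cKO cryoinjury replicates 1, 2 and 3 it was 8, 1 and 9. How many of all genes were called after each omission is not given here. The member median stayed between -0.56 and -0.33 over these omissions.

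The gene cox7a2b was the one member still called after each of these omissions. It stood at 6.08, 5.57 and 3.67 CPM in uninjured cKO ventricles and at 10.3, 11.9 and 10.4 CPM after cryoinjury. The groups did not overlap, and the rise was 1.09 ± 0.22 (adjusted p = 0.00443, at most 0.033 over 14 alternatives). For cox6a1 the values were 56.3, 60.6 and 29.2 CPM uninjured and 75, 81.8 and 81.2 CPM after cryoinjury, a rise of 0.70 ± 0.22 (adjusted p = 0.0465); without cKO uninjured replicate 3, the lowest library, it was 0.44 (adjusted p = 0.129), and it also missed the threshold without any 1 cryoinjured library (adjusted p = 0.0782, 0.139 and 0.13).

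Whether the response to cryoinjury differed between the arms was tested as an interaction. For cryoinjury against uninjured, its control side lies between lanes and its cKO side within 1 lane, so the lane difference is part of it. Interactions with sham hold a part of that difference. No member passed for cryoinjury against uninjured, where 0.0244% of all genes did; 3 members had an unadjusted p under 0.05, against 11.2% of all genes. DESeq2 also called 0. The median difference, cKO minus control, was 0.26 over the members and 0.01 without control uninjured replicate 1. With library totals alone it turned to -0.0042, but there the median of all genes moves too. As given above, that move is larger in control than in cKO. The 3 members with an unadjusted p under 0.05 were ndufb1 (0.70 ± 0.29, adjusted p = 0.389), atp5f1e (0.63 ± 0.28, adjusted p = 0.409) and sdhda (0.88 ± 0.41, adjusted p = 0.445). For sham against uninjured 0 members passed (0.0244% of all genes) and 1 had an unadjusted p under 0.05 (9.2% of all genes). For cryoinjury against sham 0 members passed (0.0% of all genes) and 1 had an unadjusted p under 0.05 (2.3% of all genes); DESeq2 called 0 in both.

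After sham alone no member passed in either arm. In control 0 were called against uninjured, where 7.63% of all genes were, and 7 had an unadjusted p under 0.05, against 22.2% of all genes. DESeq2 called 2, sdhaf2 and ndufb7, both lower, but its share of all genes is not given here. The member median was -0.20, but it was 0.07 without control uninjured replicate 1. With library totals alone it was 0.12, on a scale that raises the fold changes of all genes in this comparison. The members with the smallest p were sdhaf2 (-1.11, adjusted p = 0.0756), ndufb7 (-0.60, adjusted p = 0.0856) and cox7a2a (0.65, adjusted p = 0.144). In the cKO arm 0 were called (1.05% of all genes) and 2 had an unadjusted p under 0.05 (10.7% of all genes), with a median of -0.13; DESeq2 called 0.

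Against sham, few members passed the adjusted test after cryoinjury. The 3 cryoinjured libraries lay below the 3 sham ones for 76 of 99 members in control, where 2736 of 20462 genes tested did. In cKO this held for 64 members and 2913 of the genes tested. In control, 2 members, sdha and cox7a1 (-0.84, adjusted p = 0.0443), were lower and 0 higher, where 0.616% of all genes were lower and 0.753% higher, and neither call survived leaving out any of the 6 libraries or adding lane as a term. At an unadjusted p under 0.05 there were 62 members, 60 of them lower, against 16.7% of all genes, and the median was -0.45. DESeq2 called 16 and a fit of the 6 libraries alone 18, all lower. What share of all genes those fits called is not given here. In cKO 0 members were called, where 0.274% of all genes were lower and 1.18% higher; 24 had an unadjusted p under 0.05, of which 20 were lower, against 15.6% of all genes, and the median was -0.29. DESeq2 called 3 there, again without its share of all genes. Of these, cox6a1 (0.82, adjusted p = 0.0129) was higher. The other members, sdhaf2 (-1.36, adjusted p = 0.00716) and cox7a1 (-0.62, adjusted p = 0.0407), were lower.

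Between the arms no member was called in any condition. In uninjured ventricles 0 members passed (0.132% of all genes) and 1 had an unadjusted p under 0.05 (13.7% of all genes), with a member median of 0.13. That comparison lies wholly between lanes. In it the cKO libraries lay above the control libraries for 0 members, where 1031 of 20462 genes tested did. After sham 0 passed (0.0147% of all genes) and 5 had an unadjusted p under 0.05 (8.04% of all genes), with a median of 0.20. That comparison lies partly between lanes. In it the cKO libraries lay above the control libraries for 44 members, where 1609 of 20462 genes tested did. The same held for 8 of the 13 mitochondrial genes, against 1 after cryoinjury. After cryoinjury 0 passed (0.00489% of all genes), but 32 members had an unadjusted p under 0.05, all higher in cKO, against 7.59% of all genes in either direction. DESeq2 called 0 members in all 3 comparisons. The cKO libraries lay above the control libraries for 64 members, against 11.3% of all genes, and the median was 0.38 (0.19 with library totals alone, where the median of all genes was -0.20). After cryoinjury the summed cardiomyocyte markers described last were at 27700 to 34740 CPM in the control libraries, below all 3 cKO libraries (36960 to 43910 CPM). Other marker sums separated in the same direction: epicardial (622 to 791.1 CPM in control, 814.2 to 1103 CPM in cKO), atrial (776.8 to 940.4 and 1071 to 1304 CPM) and skeletal muscle (1901 to 2669 and 2758 to 3641 CPM). So did the endothelial and endocardial sum (804.5 to 909.1 and 914.8 to 967.4 CPM). The low neutrophil sum separated in the other direction (7.791 to 11.86 CPM in control, 4.959 to 6.43 CPM in cKO). Fewer single markers separated. Higher in cKO without overlap were 3 of 11 cardiomyocyte, 1 of 7 epicardial, 2 of 6 atrial and 3 of 8 skeletal muscle markers. So were 3 of 7 endothelial and endocardial markers. Lower without overlap were 1 epicardial and 1 of 6 neutrophil markers. The only call in these lists was an epicardial marker, lower in cKO. Of 16 macrophage markers tested, 14 had a fold change below 0 in cKO against control, 7 of them without overlap, with 0 called. The part of these shifts in the members' difference was not tested.

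The members with the smallest p after cryoinjury were ndufb1, sdhda and sdha. The complex I subunit ndufb1 stood at 11.1, 13.3 and 15 CPM in control and at 21.0, 21.3 and 24.7 CPM in cKO, without overlap, a difference of 0.77 ± 0.21 (adjusted p = 0.348; 0.0455 when only these 6 libraries were fitted). For sdha the values were 385, 380 and 399 CPM in control and 722, 472 and 578 CPM in cKO, a difference of 0.61 ± 0.21 (adjusted p = 0.478). The mitochondrial genes had a median difference of 0.30 after cryoinjury, and of 13 none passed at an adjusted or an unadjusted p of 0.05 in the edgeR test.

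**Figure D5:**
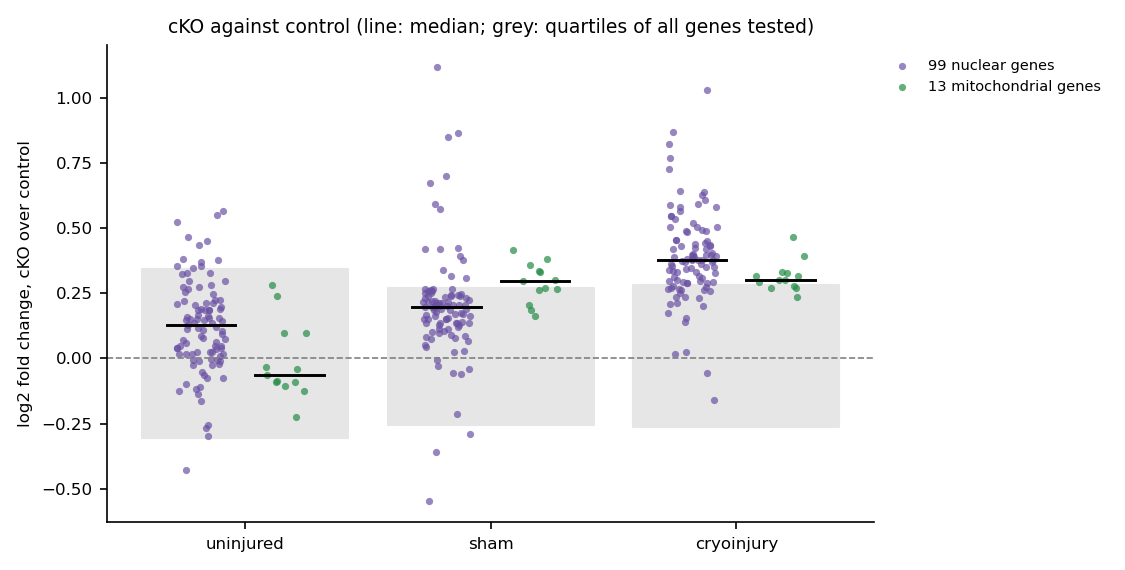
Log2 fold change of cKO over control for the 99 nuclear members and the 13 mitochondrial protein genes in each condition, with the medians as lines. The nuclear medians are 0.13, 0.20 and 0.38 from uninjured to cryoinjury, and no point passed the adjusted test. The uninjured comparison lies between lanes, the sham comparison partly so, and the cryoinjury comparison within 1 lane.

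Other genes of mitochondrial metabolism were read from lists, against the 10.6% of all genes that were lower in control and 3.69% in cKO. The citric acid cycle list also held pyruvate dehydrogenase genes. In control cryoinjury against uninjured, 15 of its 21 genes were lower and 1 higher. Among the lower were idh2 (-1.09, adjusted p = 7.9e-05) and citrate synthase, cs (-1.08, adjusted p = 0.000175), and the list median was -0.79. The carrier list held electron and adenine nucleotide carriers, mitochondrial creatine kinases, coq genes of ubiquinone synthesis and vdac pore genes. Of its 22 genes tested, 13 were lower and 0 higher. The mitochondrial creatine kinase ckmt2b had -1.65 (adjusted p = 0.000156) and the ATP/ADP exchanger slc25a5 had -1.34. Of 24 regulators of mitochondrial biogenesis 6 were lower and 0 higher, including the coactivator ppargc1a (-1.87, adjusted p = 0.00532) and the mitochondrial transcription factor tfb2m (-1.14); tfam had 0.31 (adjusted p = 0.13). Of 75 mitochondrial ribosomal protein genes 20 were lower (median -0.41), of 44 assembly factors 10 (median -0.50), and of 28 import genes 8 were lower and 1 higher (median -0.40). In the cKO arm the same comparison gave 8 of 21 genes of the citric acid cycle list and 9 of 22 of the carrier list lower. So were 3 of 24 regulators and 1 of 44 assembly factors. Of 75 ribosomal and 28 import genes 0 were called (12 and 1 at an unadjusted p under 0.05, against 25.5% of all genes). The 1 of 44 assembly factors is no more than the share of all genes.

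Markers of several cell types moved in the same comparisons. Of 11 cardiomyocyte markers 6 were lower and 0 higher after cryoinjury in control, among them actc1a and atp2a2a; their summed level was 52600 to 75480 CPM uninjured, 41920 to 47560 after sham and 27700 to 34740 after cryoinjury, and in cKO 50310 to 62450, 49780 to 52410 and 36960 to 43910. The 11 fibroblast and matrix markers summed to 1247 to 1652 CPM uninjured and 6674 to 12170 after cryoinjury in control (10 higher, 0 lower), and the 17 macrophage markers to 366 to 1007 and 1122 to 1758 (8 higher and 0 lower of 16 tested). All 9 cell cycle genes, 6 of 7 epicardial markers and 4 of 8 mural markers (median 0.94) were higher. Over all genes tested, 13.1% were higher and 10.6% lower. Near these shares, 1 of 6 atrial and 1 of 6 neutrophil markers were higher and 1 of 7 endothelial markers was lower. Of 8 skeletal muscle markers tested 2 were lower. None of 6 red blood cell markers passed, although all 6 fold changes lay above 0 (median 0.93). Rises were also called after sham against uninjured in control, where 984 of 20462 genes tested were higher. They covered 9 of 11 fibroblast and matrix markers, whose sum after sham (5487 to 8669 CPM) overlapped that after cryoinjury. They also covered 6 of 7 epicardial, 6 of 9 cell cycle, 1 of 16 macrophage and 1 of 8 mural markers. In cKO after cryoinjury against uninjured, 3.69% of all genes tested were lower and 6.92% higher. There 2 of 11 cardiomyocyte markers were lower and 2 of 16 macrophage markers higher. Of 11 fibroblast and matrix markers 9 were higher (1424 to 2352 CPM uninjured, 8758 to 10680 after cryoinjury). So were 5 of 7 epicardial, 5 of 9 cell cycle and 3 of 8 mural markers. In the other lists, 1 of 6 atrial and 1 of 6 neutrophil markers were higher and 1 of 8 skeletal muscle markers was lower. No marker of these lists was at 0 in all libraries. In bulk tissue, fewer cells of a type and less RNA per cell cannot be told apart, and the part of these shifts in the members' fall was not tested.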

How the data were processed

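Polyadenylated RNA was sequenced from pooled adult ventricles. Per the submitters' processing notes, reads were handled with FastQC 0.11.9, Trim Galore 0.6.10, HISAT2 2.1.0 and StringTie 2.1.1 on GRCz11. Values of the deposited table are estimated counts, 1 row a gene: summing coverage times length, divided by 75 bases, over the transcripts of each deposited StringTie file gave back 100% of them after rounding. TPM in those files were computed by the authors' StringTie runs. The table's symbols were matched to RefSeq zebrafish names by symbol and chromosome for 81 members, by stem or synonym and chromosome for 16, and kept as given for 2.

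Counts were tested with edgeR 4.0.16 in R 4.3.3 (TMM, filterByExpr, robust quasi-likelihood fit of all 18 libraries with 1 mean per group, two-sided, Benjamini-Hochberg over 20462 genes, threshold 0.05). The script was tested on simulated data. Same-numbered libraries deviated together (every correlation over 0.1) only between control uninjured and control sham, where the labels state no pairing and a replicate block left the count of members called at 0. Alternatives were other scalings, no filter, DESeq2 1.42.0, the 6 libraries compared alone, lane, a replicate block and leaving out each library. Named members were those called with a mean of at least 5 CPM, at most 6 per direction, the paralogue sets, the highest TPM per complex, and the 3 of smallest p where none passed; others are given as examples of a role, chosen after their values were seen. The members, gene lists and tests were chosen with earlier results of these data known. Promoter and protein sequences were not analysed here. How reads shared by paralogues were counted is not given in the sources used here.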

Additional observations from a re-analysis of the deposited data

How the results depend on the processing

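The cryoinjury counts moved with lane, with scaling, with the libraries fitted together and with single libraries. Library totals without scaling factors were tried after seeing the data, and why counts moved was not tested. The shares of all genes called under each alternative are not given here. Whether calls changed over all genes or among the members only cannot be told from these counts. For control cryoinjury against uninjured, the 68 members called became 2 with lane as a term, 16 with library totals and 12 in a fit of the 6 libraries alone, and ranged from 34 (without control uninjured replicate 1) to 80 when 1 library was left out and was 37 without control cryoinjury replicate 1. The 11 mitochondrial genes called there became 0, 3 and 0, and ranged from 5 to 13. For cKO cryoinjury against uninjured, the 18 members called became 32 with DESeq2 and ranged from 1 to 23, and the 1 mitochondrial gene became 2 with RLE factors or DESeq2, 0 with totals or 6 libraries, and ranged from 0 to 1. For control sham against uninjured, 0 became 2 with totals (higher) or DESeq2 (lower), ranging from 0 to 3. For control cryoinjury against sham, 2 became 0 with lane, 18 with 6 libraries and 16 with DESeq2. In cKO that comparison went from 0 to 3 with totals, 7 with 6 libraries and 3 with DESeq2. For cKO against control after cryoinjury, 0 became 1 with 6 libraries.

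As a share of uninjured, the summed nuclear members after cryoinjury were 86.2% in TPM and 82.0% of nuclear-gene counts in control, and 83.0% in TPM in cKO. The mitochondrial sum was 87.2% in TPM and 85.3% against nuclear-gene counts in control, and 85.4% in TPM in cKO; after sham in control it was 100.4% against nuclear-gene counts. No fold change reversed its direction among the members named in a comparison as called or as having the smallest p. For the other genes given above, direction was not checked in the alternatives.

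Deviations from the group means correlated at -0.034 to 0.198 (median 0.0484) over 45 same-numbered pairs of libraries, 9 of them over 0.1, and at -0.217 to 0.0995 (median -0.0221) over 90 differently numbered pairs, 0 of them over 0.1. All same-numbered correlations exceeded 0.1 in 1 of 15 pairs of groups, control uninjured with control sham, and every library correlated best with its own number in 3 of 15, a hint from the data and not from the labels. With a replicate block the control count stayed at 68 for cryoinjury against uninjured, the cKO count went from 18 to 24, control cryoinjury against sham from 2 to 6 and cKO from 0 to 1. The other counts of members called were 0 with and without it, control sham against uninjured included.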
